A study of Mus musculus with 12 samples.

Results

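Preosteoclasts from the mandible were compared with preosteoclasts from the femur of the same ligated LSD1cKO mice. Members were the libraries whose labels name LSD1cKO, ligature and one of these bones: 2 mandible libraries and 2 femur libraries, from mice 1L and 2L, 4 of the 12 libraries sequenced. LSD1cKO mice carry floxed LSD1 (Kdm1a) and Cre recombinase driven from the lysozyme M (Lyz2) locus, so that recombination is directed to cells of the myeloid lineage that have used this locus, and their controls are termed LSD1WT. The mice were female and, by the series description, 2 months old (the sequencing methods give a greater age). Silk ligatures, which induce periodontitis, stayed for 7 days on the second molars of both sides of the upper jaw, so neither the mandible nor the femur was the ligated bone. Marrow flushed from each bone was grown for 2 days with M-CSF and RANKL before RNA was isolated and sequenced. The other libraries came from LSD1cKO femurs without ligature (2 libraries, from other mice) and from LSD1WT mice (6 libraries). Mandible marrow of unligated mice is not analysed here, so an effect of the ligature within the mandible cannot be measured. Values given in pairs are for mouse 1L and then mouse 2L, in CPM, the read count scaled to the size of its library.

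Osteoclasts form when myeloid precursors commit, fuse and express bone-degrading enzymes in response to M-CSF and RANKL. Type I interferon acts as a brake in this process: it is made by the precursors themselves, signals through STAT2 and IRF9, and induces a broad set of antiviral genes. LSD1 is a histone demethylase that restrains gene expression in differentiating myeloid cells. Long bones arise from mesoderm and the mandible largely from neural crest, and marrow of both holds hematopoietic precursors. The comparison asks whether preosteoclasts that lack LSD1 differ by the skeletal site of their marrow.

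Promoters of interferon-induced genes commonly carry an interferon-stimulated response element, whose core is GAAA, any 2 bases and GAAA again. These letters were searched on both strands (TTTC, any 2 bases and TTTC on the other strand) in the 200 bases before the RefSeq start of each gene. The windows shown belong to the 4 interferon-response genes with the smallest p in the site comparison that hold the letters. The windows are printed as examples from this list, in which other genes had larger fold changes. They come from the GRCm38.p6 assembly of RefSeq, whereas the submitters' processing notes name GRCm39 for the counts, so the coordinates apply to the sequence windows only. Capitals mark the matches. The Gbp3 window is at chr3:142559844-142560043 on the plus strand, with 2 matches that overlap. The Ifit3b window is at chr19:34607757-34607956 on the plus strand and holds 2 matches. The Rsad2 window is at chr12:26456453-26456652 on the minus strand and holds 1 match. The Ifit1 window is at chr19:34640689-34640888 on the plus strand and holds 2 matches.
Gbp3: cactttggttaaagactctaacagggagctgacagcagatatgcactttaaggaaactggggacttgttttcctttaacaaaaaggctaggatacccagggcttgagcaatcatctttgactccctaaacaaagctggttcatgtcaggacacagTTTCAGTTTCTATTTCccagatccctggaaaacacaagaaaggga
Ifit3b: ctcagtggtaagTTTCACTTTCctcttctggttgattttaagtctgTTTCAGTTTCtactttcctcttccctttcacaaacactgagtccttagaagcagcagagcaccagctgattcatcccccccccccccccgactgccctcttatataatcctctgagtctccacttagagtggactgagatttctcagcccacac
Rsad2: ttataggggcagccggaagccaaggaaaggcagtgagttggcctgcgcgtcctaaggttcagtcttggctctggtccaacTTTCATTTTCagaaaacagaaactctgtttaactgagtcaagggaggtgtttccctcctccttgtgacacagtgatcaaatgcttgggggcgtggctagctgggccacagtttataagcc
Ifit1: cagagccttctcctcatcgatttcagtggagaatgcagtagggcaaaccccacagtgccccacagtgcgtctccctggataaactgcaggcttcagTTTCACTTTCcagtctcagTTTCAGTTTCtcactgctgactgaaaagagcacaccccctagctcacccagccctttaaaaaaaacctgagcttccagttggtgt
The letters occurred in 2.65% of all 27025 genes with a window and in 2.65% of the 10309 tested genes with one. They occurred in 16 of the 28 interferon-response genes with a window (57.1%, of 41 tested members). Among all genes lower in mandible, 10.2% of 911 windows held them, and among genes higher in mandible 1.14% of 880. A match is a description of the sequence and not evidence of a bound site.

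Total counts were 26877661 and 30770886 in the mandible libraries, 25431051 and 22646295 in the ligated femur libraries and 28973436 and 25995879 in the unligated femur libraries. A count of 0 allowed up to 3 counts, which is 0.0957 to 0.137 CPM, and such limits cover counting error only. Kdm1a (ENSMUSG00000036940), the targeted gene, was at 25.1 and 22.8 CPM in mandible and 16.0 and 18.6 CPM in femur. On a scale set over all 12 libraries it was between 61.2 and 71.3 CPM in the 6 LSD1WT libraries, above every LSD1cKO library. The log2 difference of Kdm1a between mandible and femur was 0.47 ± 0.18, adjusted p = 0.128, with higher values in both mandible libraries, and it passed the threshold with the 4 libraries alone (adjusted p = 0.0183, edgeR quasi-likelihood). Lyz2, whose locus drives the Cre, was at 1274 and 1644 CPM in mandible and 6603 and 7881 CPM in femur (log2 fold change -2.31, adjusted p = 0.0179). It was lower in mandible, and the call was lost with the mouse as a block (adjusted p = 0.0515) and when any 1 of the 4 libraries was left out (adjusted p from 0.104 to 0.172). The replicates differed in how far apart they lay. The biological coefficient of variation was 0.0965 for the mandible pair, 0.118 for the ligated femur pair and 0.357 for the unligated femur pair of LSD1cKO, against 0.716 for the ligated femur pair of LSD1WT.

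The preosteoclasts of the mandible and the femur differed in many genes when measured against the spread within LSD1cKO. In a quasi-likelihood fit (edgeR) of the 6 LSD1cKO libraries, 14824 genes were tested at a Benjamini-Hochberg adjusted p under 0.05. In mandible 1123 genes were higher (7.58% of the genes tested) and 1213 were lower (8.18%). Every gene called had the same direction in both mice. The changes downward were larger: 428 of the genes lower in mandible and 168 of the genes higher in mandible differed at least 4-fold, and the median log2 fold changes were -1.49 and 1.14. The median over all genes tested was -0.00. Both mandible libraries lay above both femur libraries in 35.8% of the genes tested and below them in 35.5%. With the mouse as a block, 353 genes were higher and 545 lower. These counts depended on the libraries that set the spread. With all 12 libraries in the fit, whose coefficient of variation was 0.419 against 0.218 in the 6 LSD1cKO libraries, edgeR called 0 genes (2312 at an unadjusted p under 0.05) and DESeq2 called 339 higher and 471 lower. With the 4 ligated LSD1cKO libraries alone, 3092 were higher (21.4% of the 14475 genes tested) and 3009 lower (20.8%). Without 1 ligated library, the counts higher and lower were 73 and 164 (mandible 1L), 72 and 238 (mandible 2L), 11 and 187 (femur 1L) and 19 and 207 (femur 2L). Without 1 unligated femur library they were 3095 and 3009 or 3094 and 3008. In the fits without a mandible or ligated femur library, the unligated femur pair weighed more in the spread. Of 137 called genes examined singly, 44 to 65 kept their call in those 4 fits, and a call described here was lost in at least 1 of them unless it is said to have been kept. Without mandible 1L the fold change moved by over 1.5 times in 13 of the 137 genes, without mandible 2L in 21, and without either ligated femur library in 2. A call lost with the mouse as a block is given with its value.

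**Figure D1:**
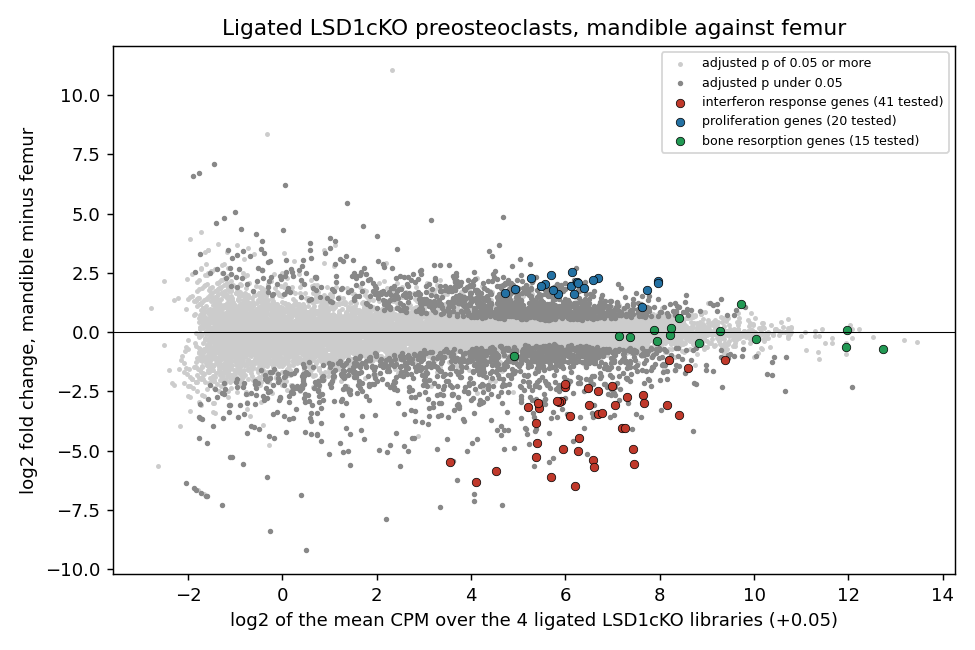
Log2 fold change, mandible against ligated femur in LSD1cKO, by the log2 mean CPM of each tested gene. The 41 interferon-response genes (red) lie below 0 from -1.17 to -6.50, the 20 proliferation genes (blue) lie above 0 from 1.07 to 2.55, and the 15 bone-resorption genes (green) lie on both sides from -1.01 to 1.18.

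**Figure D2:**
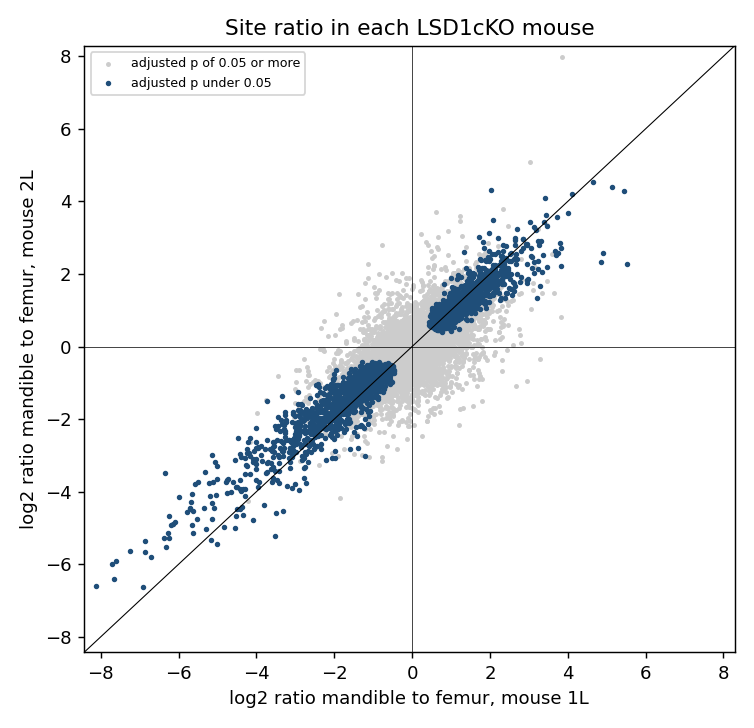
Log2 ratio of mandible to femur in mouse 1L (horizontal) and mouse 2L (vertical), each point a tested gene, with the genes called in colour. All 1123 genes higher and 1213 lower in mandible have the same sign in both mice, and since they were called on the same libraries this is a description.

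Interferon-response genes were lower in mandible. All 41 tested members of 42 listed were lower in mandible, against 8.18% of all genes. Their log2 fold changes ran from -6.50 to -1.17 with a median of -3.42, against -0.00 over all genes. Without mandible 1L the median was -2.95, and without mandible 2L it was -4.22. Both mandible libraries were below both femur libraries for each of the 41, against 35.5% of all genes. Their summed level was 1064 and 1820 CPM in mandible and 8039 and 9673 CPM in ligated femur. It was 5851 and 6670 CPM in unligated femur, so the mandible was the site that stood apart among the 3 LSD1cKO groups. Against unligated femur the median of the list was -2.93.

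Ifit1 (ENSMUSG00000034459), which binds foreign RNA caps, was at 1.88 and 5.55 CPM in mandible and 163 and 219 CPM in femur. The groups did not overlap, and the level was 51.1-fold higher in femur (log2 fold change -5.67 ± 0.53, adjusted p = 0.00419). Ifit3, which stabilises Ifit1, was at 0.604 and 2.58 CPM in mandible and 133 and 159 CPM in femur, a 90.3-fold difference (log2 -6.50 ± 0.61, adjusted p = 0.00419). Ifit2, of the same family, was at 4.16 and 10.3 CPM in mandible and 326 and 363 CPM in femur (log2 fold change -5.57, adjusted p = 0.00424). In each of these genes mouse 2L had the higher mandible value, and that value was still far below both femur values.

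Rsad2, which encodes the antiviral enzyme viperin, was at 2.49 and 6.44 CPM in mandible and 181 and 193 CPM in femur (log2 fold change -5.38, adjusted p = 0.00405). Zbp1, a sensor of Z-form nucleic acid, was at 0.675 and 2.20 CPM in mandible and 87.1 and 116 CPM in femur (log2 fold change -6.12, adjusted p = 0.00419). Mx2, an antiviral GTPase, was at 0.320 and 0.670 CPM in mandible and 19.5 and 25.9 CPM in femur (log2 fold change -5.49, adjusted p = 0.00443). All 3 had mandible values far below femur in both mice. Stat2, a transcription factor through which interferon signals, was at 14.7 and 20.2 CPM in mandible and 176 and 203 CPM in femur (log2 fold change -3.44, adjusted p = 0.00360). Guanylate-binding Gbp3 was at 11.97 and 16.3 CPM in mandible and 101 and 109 CPM in femur (log2 fold change -2.89, adjusted p = 0.00360), and Herc6, a ligase of the interferon-induced modifier ISG15, at 7.17 and 9.64 CPM in mandible and 77.2 and 80.0 CPM in femur (log2 fold change -3.22, adjusted p = 0.00217). Oasl2, an oligoadenylate synthetase-like protein, was at 6.43 and 29.0 CPM in mandible and 262 and 319.7 CPM in femur (log2 fold change -4.03, adjusted p = 0.0139), and its call was lost without femur 1L or femur 2L, as its adjusted p without 1 library ran from 0.0157 to 0.0879. The calls of the other interferon-response genes named here held in every fit that left out 1 ligated library and with the mouse as a block. Over the list, 38 of 41 were lower with the mouse as a block, and 28, 33, 22 and 22 without mandible 1L, mandible 2L, femur 1L and femur 2L. With all 12 libraries edgeR called none of them, whereas DESeq2 called 39.

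Further interferon-inducible genes led the ranking of genes lower in mandible. Ifi213, of the family of nucleic-acid sensors, had the largest fold change of the genes named by rank, at 0.0710 and 0.542 CPM in mandible and 40.6 and 59.3 CPM in femur (log2 fold change -7.28, adjusted p = 0.00460). Slfn1, of the Schlafen family, was at 0.178 and 0.287 CPM in mandible and 30.5 and 36.0 CPM in femur (log2 fold change -7.12, adjusted p = 0.00107). The immunity-related GTPase Iigp1 was at 0.0710 and 0.479 CPM in mandible and 30.4 and 35.3 CPM in femur (log2 fold change -6.84, adjusted p = 0.00362). The mandible values of these genes were under 1 CPM in both mice. Ifit1bl1, Ifit3b, Ifi44 and Trim30c were also among the 15 genes with the largest fold changes downward, with log2 fold changes of -5.63, -6.34, -5.85 and -5.44. The calls of these 7 genes were kept in every fit without 1 ligated library.

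The signalling genes upstream of this response were lower for 6 of 12 tested members (of 18 listed) and higher for none. Over all genes 8.18% were lower. The median log2 fold change of the list was -0.85. Among the Toll-like receptors that sense nucleic acids, Tlr7 was at 12.6 and 20.2 CPM in mandible and 124 and 98.3 CPM in femur (log2 fold change -2.76, adjusted p = 0.00419), Tlr9 at 5.75 and 9.16 CPM in mandible and 41.1 and 32.2 CPM in femur (log2 fold change -2.30, adjusted p = 0.00905) and Tlr3 at 9.94 and 16.3 CPM in mandible and 38.4 and 37.2 CPM in femur (log2 fold change -1.52, adjusted p = 0.0148). The transcription factor Irf1 was at 30.2 and 34.4 CPM in mandible and 115 and 126 CPM in femur (log2 fold change -1.90, adjusted p = 0.00442). The call was kept in every fit without 1 ligated library for Tlr7, while the adjusted p ran from 0.0428 to 0.127 for Tlr3, from 0.0486 to 0.0870 for Tlr9 and from 0.0451 to 0.0625 for Irf1. Ifngr1, a receptor chain for interferon gamma, and Sting1, an adaptor of DNA sensing, had log2 fold changes of -1.19 and -0.97, and both calls were lost with the mouse as a block (adjusted p = 0.0517 and 0.0947). Irf3, a factor that induces interferon beta downstream of Tlr3 and Sting1, was at 42.9 and 40.5 CPM in mandible and 40.9 and 39.7 CPM in femur (log2 fold change 0.05 ± 0.14, adjusted p = 0.860). Irf7, counted in the interferon-response list, was at 4.69 and 17.1 CPM in mandible and 261 and 406 CPM in femur (log2 fold change -4.93). Ifnb1, the ligand itself, had 0 and 0 counts in mandible and 1 and 6 counts in femur and was below the filter for testing. Irf3, Irf7 and Ifnb1 were named after their values were seen.

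Tissue-macrophage genes formed the next group. Of 19 tested resident-macrophage genes (of 22 listed), 10 were lower in mandible and 1 was higher, with a median log2 fold change of -2.22. The shares over all genes were 8.18% lower and 7.58% higher. Siglec1, the sialic acid receptor CD169 and itself an interferon-inducible gene, was at 1.28 and 3.13 CPM in mandible and 99.7 and 96.4 CPM in femur and at 61.6 and 86.3 CPM in unligated femur (log2 fold change -5.46 ± 0.43, adjusted p = 0.00360). Mertk, which takes up dying cells, was at 1.70 and 2.87 CPM in mandible and 57.0 and 37.0 CPM in femur (log2 fold change -4.35, adjusted p = 0.00360). Its ligand Gas6 was at 10.02 and 12.5 CPM in mandible and 63.3 and 45.9 CPM in femur (log2 fold change -2.28, adjusted p = 0.00419). The groups were separate for receptor and ligand alike. Maf, a transcription factor of macrophage identity, was at 11.5 and 20.9 CPM in mandible and 193 and 153 CPM in femur (log2 fold change -3.42, adjusted p = 0.00419), the mannose receptor Mrc1 at 3.84 and 7.37 CPM in mandible and 177 and 99.2 CPM in femur (log2 fold change -4.62, adjusted p = 0.00419) and the complement component C1qb at 19.7 and 39.4 CPM in mandible and 387 and 333 CPM in femur (log2 fold change -3.60, adjusted p = 0.00461). Outside the list, the membrane protein Ms4a4a and the lectin Mgl2 were among the 15 genes with the largest fold changes downward, at 0.320 and 0.351 CPM against 31.5 and 19.6 CPM and at 0.0710 and 0.351 CPM against 11.1 and 10.8 CPM. The single member that was higher, Sparc, encodes a matrix protein and was at 1.95 and 1.79 CPM in mandible and 0.439 and 0.137 CPM in femur, a low level whose call was lost with the mouse as a block (adjusted p = 0.0840). The calls of the other macrophage genes named here were kept in every fit without 1 ligated library. In those fits 8 members of the list were lower in each, and 10 with the mouse as a block. The listed genes were measured in bulk RNA, in which fewer cells of a type and less RNA per cell cannot be told apart.

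Monocyte genes were lower for 6 of 12 tested (8.18% of all genes) and higher for none, with a median of -1.02. Against unligated femur the median of the list was -0.46. Both mandible libraries lay below both femur libraries for 9 members and above them for 2, against 35.5% and 35.8% of all genes. The 2 were Cx3cr1 and Fn1, with log2 fold changes of 0.25 and 1.31 that did not pass. Both were named after their values were seen. Ms4a6c was at 25.6 and 34.5 CPM in mandible and 306 and 352 CPM in femur (log2 fold change -3.45, adjusted p = 0.00430), and Ccr2, the chemokine receptor of inflammatory monocytes, at 39.4 and 51.4 CPM in mandible and 244 and 235 CPM in femur (log2 fold change -2.40, adjusted p = 0.00440). In unligated femur Ms4a6c was at 127 and 238 CPM and Ccr2 at 107 and 71.6 CPM, below the ligated femur values. The call of Ms4a6c was kept in every fit without 1 ligated library, while that of Ccr2 was lost without mandible 1L. Chil3, a chitinase-like secreted protein, was at 21.1 and 25.5 CPM in mandible and 57.4 and 50.6 CPM in femur (log2 fold change -1.21, adjusted p = 0.00708). A block for the mouse left 3 monocyte genes lower, and without 1 ligated library 1 or 2 were. Dendritic-cell genes were lower for 3 of 12 tested (8.18% of all genes), with a median of -1.06 and of -0.19 against unligated femur. They were led by the lectin Clec10a at 1.49 and 1.40 CPM in mandible and 33.7 and 32.8 CPM in femur (log2 fold change -4.52, adjusted p = 0.00107). In unligated femur Clec10a was at 11.2 and 11.3 CPM. Clec10a was the 1 of the 3 called under the mouse block, and its call was kept in every fit without 1 ligated library.

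Antigen-presentation genes of MHC class II were lower for 10 of 16 (8.18% of all genes), with a median of -1.63 and none higher. H2-Ab1 was at 56.2 and 53.0 CPM in mandible and 206 and 195 CPM in femur (log2 fold change -1.88 ± 0.22, adjusted p = 0.00495). Its level in unligated femur was 82.2 and 56.0 CPM, near the mandible values, and the median of the list against unligated femur was -0.55. H2-Aa was at 64.9 and 66.2 CPM in mandible and 249 and 253 CPM in femur (log2 fold change -1.94, adjusted p = 0.00502) and H2-Eb1 at 48.7 and 49.2 CPM in mandible and 161 and 165 CPM in femur (log2 fold change -1.74, adjusted p = 0.00521). For these chains of the class II molecule, ligated femur had the highest values of the 3 LSD1cKO groups. H2-DMa, which loads peptide on class II molecules, was at 15.2 and 16.6 CPM in mandible and 57.6 and 56.1 CPM in femur (log2 fold change -1.84, adjusted p = 0.00456), and Ctss, the protease that trims the invariant chain, at 505 and 672 CPM in mandible and 2053 and 2112 CPM in femur (log2 fold change -1.82, adjusted p = 0.00571). A block for the mouse left 9 members lower, and without mandible 1L, mandible 2L, femur 1L or femur 2L 0, 2, 1 and 1 were lower (edgeR).

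**Figure D3:**
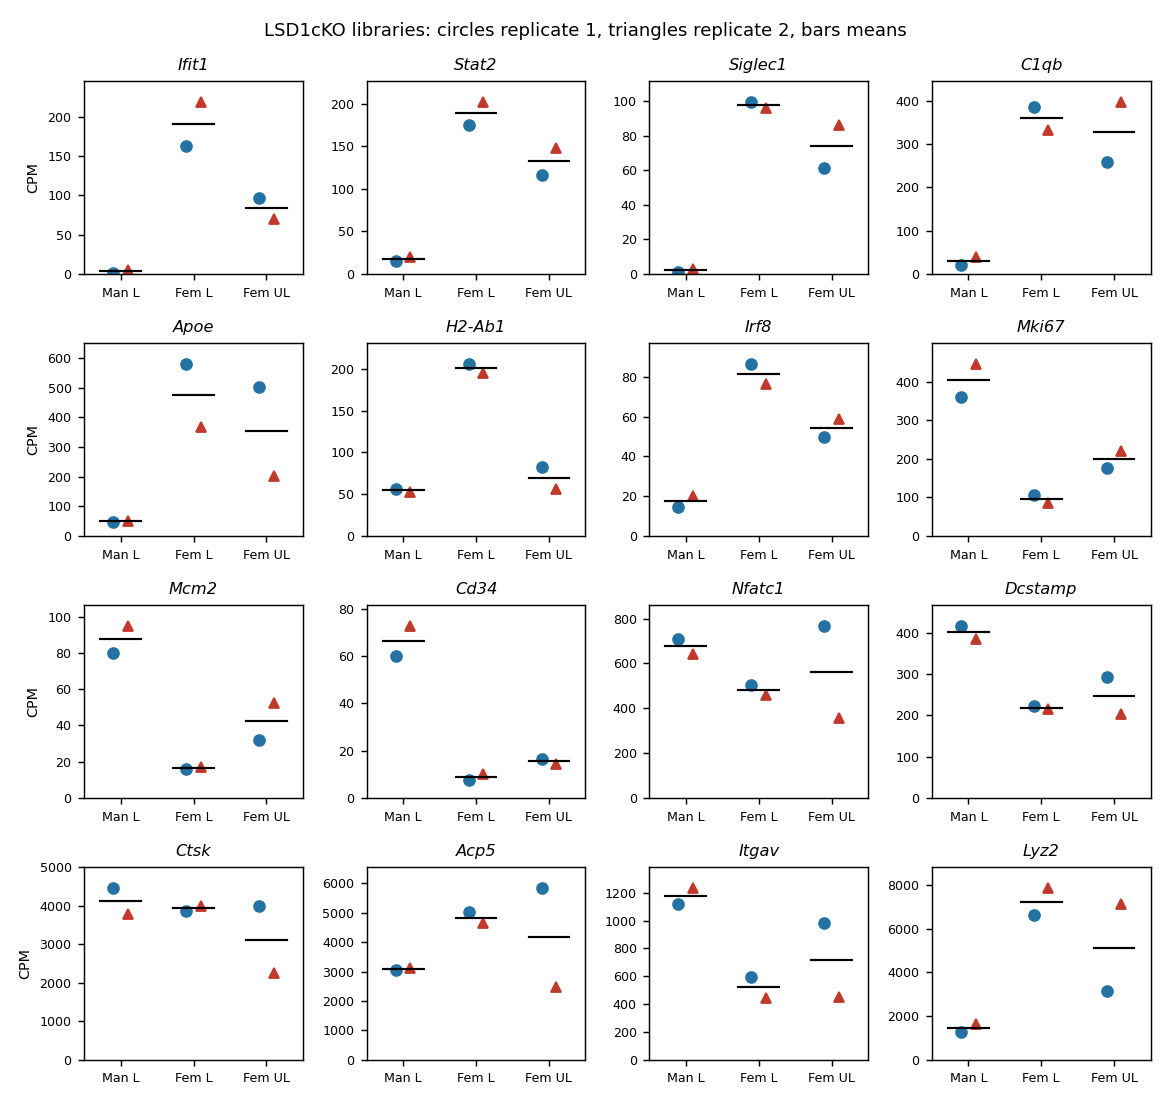
CPM of 16 genes in mandible and femur of ligated LSD1cKO mice and in femur of unligated LSD1cKO mice, with circles for replicate 1, triangles for replicate 2 and bars for the mean of 2 libraries. Ifit1 is at 1.88 and 5.55 CPM in mandible and 163 and 219 CPM in ligated femur, Mki67 at 361 and 446 CPM and 106 and 84.5 CPM, and the values of Ctsk overlap between the sites.

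Genes of cholesterol efflux, many of them targets of the liver X receptors (LXR), were lower in mandible for 8 of 15 tested, with a median of -1.23 and none higher. The transporter Abcg1 was at 28.2 and 39.9 CPM in mandible and 208 and 205 CPM in femur (log2 fold change -2.60, adjusted p = 0.00442) and Abca1 at 9.52 and 14.5 CPM in mandible and 180.0 and 112 CPM in femur (log2 fold change -3.60, adjusted p = 0.00760). Apoe, the lipoprotein that accepts cholesterol, was at 47.7 and 50.2 CPM in mandible and 581 and 366 CPM in femur (log2 fold change -3.28, adjusted p = 0.00835). Femur exceeded mandible in both mice for all 3. Nr1h3, which encodes LXR alpha itself, was at 10.2 and 11.5 CPM in mandible and 24.5 and 27.1 CPM in femur (log2 fold change -1.25, adjusted p = 0.00774), and Fabp5, a fatty acid carrier, at 85.7 and 101 CPM in mandible and 265 and 257 CPM in femur (log2 fold change -1.48, adjusted p = 0.00922). All 8 were lower with the mouse as a block, but 0, 1, 1 and 3 were without mandible 1L, mandible 2L, femur 1L and femur 2L. Of 20 tested genes of cholesterol synthesis 2 were higher and 2 lower, shares near those of all genes (7.58% and 8.18%). Sqle, squalene epoxidase, was at 47.5 and 53.0 CPM in mandible and 27.6 and 24.6 CPM in femur (log2 fold change 0.94, adjusted p = 0.0244), and Mvd, of the mevalonate pathway, at 21.1 and 19.9 CPM in mandible and 38.3 and 38.2 CPM in femur (log2 fold change -0.90, adjusted p = 0.0106). With the mouse as a block none of the 4 passed, with adjusted p = 0.0807 for Sqle and 0.0535 for Mvd.

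The lipid genes that the study measured by qRT-PCR were picked there with these or related samples in view. Of 9 tested, 2 were lower in mandible and 1 was higher, against 8.18% and 7.58% of all genes. Cyp27a1, which makes oxysterols that activate LXR, was at 7.00 and 6.38 CPM in mandible and 35.4 and 27.1 CPM in femur (log2 fold change -2.22, adjusted p = 0.00424). Cyp1b1, a cytochrome P450 of steroid and fatty acid oxidation, was at 7.32 and 6.92 CPM in mandible and 0.877 and 0.912 CPM in femur (log2 fold change 2.99, adjusted p = 0.0225), in the opposite direction. Abcg3, a transporter, was at 8.95 and 10.2 CPM in mandible and 29.1 and 23.1 CPM in femur (log2 fold change -1.44, adjusted p = 0.0112). The call of Cyp1b1 was lost with the mouse as a block (adjusted p = 0.0611), and those of Cyp1b1 and Abcg3 when any 1 ligated library was left out, while that of Cyp27a1 was kept in each of these fits. Abcg2, Alox5, Alox15, Abca3, Abcb1b and Cyp39a1 did not pass, with log2 fold changes of -0.53, -0.63, 0.32, -0.50, 0.39 and 0.49.

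Genes of inflammatory cytokines and of related enzymes and sensors were lower for 5 of 23 tested and higher for 1. Over all genes 8.18% were lower and 7.58% higher. The median was -1.01, and -0.46 against unligated femur. Both mandible libraries lay below both femur libraries for 15 members and above them for 5, against 35.5% and 35.8% of all genes. The 5 included Tnf and Il10, with log2 fold changes of 0.77 and 1.66 that did not pass. Both were named after their values were seen. Cxcl10, a chemokine induced by interferon, was at 4.90 and 10.6 CPM in mandible and 80.1 and 111 CPM in femur (log2 fold change -3.62, adjusted p = 0.00502), and its call was kept in all fits without 1 ligated library. Il18, a cytokine matured by inflammasomes, was at 3.23 and 3.61 CPM in mandible and 12.3 and 17.6 CPM in femur (log2 fold change -2.13, adjusted p = 0.0119), and Nlrp3, the inflammasome sensor, at 21.9 and 33.1 CPM in mandible and 55.4 and 55.7 CPM in femur (log2 fold change -1.01, adjusted p = 0.0267). The calls of both were lost when any 1 ligated library was left out, and that of Nlrp3 with the mouse as a block (adjusted p = 0.0555). Cxcl3, a neutrophil chemokine, was the member that was higher, at 1.07 and 1.31 CPM in mandible and 0.239 and 0.137 CPM in femur (log2 fold change 2.61, adjusted p = 0.0337, and adjusted p = 0.0930 with the mouse as a block). Acod1, which makes itaconate, was at 4.65 and 8.33 CPM in mandible and 11.5 and 15.6 CPM in femur (log2 fold change -1.06 ± 0.42, adjusted p = 0.148). Hif1a, the hypoxia-inducible factor, was at 96.6 and 112 CPM in mandible and 118 and 106 CPM in femur with overlapping groups (log2 fold change -0.10 ± 0.17, adjusted p = 0.739). Immediate early and stress genes were lower for 4 of 18 tested and higher for 2 (2 and 2 with the mouse as a block), against 8.18% lower and 7.58% higher over all genes. Egr1, a transcription factor induced within minutes of stimulation, was at 3.16 and 2.81 CPM in mandible and 45.4 and 59.1 CPM in femur and at 7.51 and 3.20 CPM in unligated femur (log2 fold change -4.13, adjusted p = 0.00437). Ligated femur was thus the group that stood apart for Egr1, and its call was kept in every fit without 1 ligated library.

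Proliferation genes were the main group in the other direction. Of 20 tested, 18 were higher in mandible and none lower, against 7.58% and 8.18% of all genes. Their log2 fold changes ran from 1.07 to 2.55 with a median of 2.00. Both mandible libraries were above both femur libraries for all 20, against 35.8% of all genes. Mki67, which encodes the proliferation antigen Ki-67, was at 361 and 446 CPM in mandible and 106 and 84.5 CPM in femur, a 4.25-fold difference (log2 fold change 2.09 ± 0.22, adjusted p = 0.00442). In unligated femur Mki67 was at 176 and 220.1 CPM, between the ligated sites, and the median of the list against unligated femur was 0.94. Mcm2, a subunit of the replicative helicase, was at 80.1 and 95.1 CPM in mandible and 16.0 and 16.9 CPM in femur (log2 fold change 2.42, adjusted p = 0.00456), and Top2a, the topoisomerase of mitotic chromosomes, at 381 and 437 CPM in mandible and 86.3 and 98.7 CPM in femur (log2 fold change 2.14, adjusted p = 0.00419). Plk1, a mitotic kinase, Bub1b, of the spindle checkpoint, and Cdc20, an activator of the anaphase-promoting complex, had log2 fold changes of 2.27, 1.60 and 2.03. The groups were separate for each of these genes. Mybl2, a cell-cycle transcription factor, and Exo1, a DNA repair nuclease, were outside the list and among the 15 genes with the largest fold changes upward (log2 fold changes 3.08 and 2.83). Pcna and Birc5, named after their values were seen, were the 2 members that did not pass (adjusted p = 0.157 and 0.0711), and both had wide values in unligated femur, at 109 and 297 CPM and 25.1 and 80.0 CPM. A block for the mouse left 14 higher, and 8, 8, 1 and 3 were higher without mandible 1L, mandible 2L, femur 1L and femur 2L. The letters TTTCCCGC, a form of the E2F site, were searched in the same promoter windows on both strands and occurred in 0 of the 18 members with a window, against 0.903% of all genes, 1.77% of the genes tested, 2.95% of the genes higher in mandible and 0.549% of those lower. This says only that these letters are not in these windows.

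Genes of stem and progenitor cells were higher for 5 of 14 tested (against 7.58% of all genes), with a median of 0.71 and none lower. DESeq2 on the 6 libraries called 4 higher and 1 lower. Both mandible libraries lay above both femur libraries for 8 members and below them for 3, against 35.8% and 35.5% of all genes. The 3 were Cebpe, Flt3 and Kit, with log2 fold changes of -0.94, -0.61 and -0.47, none of which passed. Flt3 and Kit were named after their values were seen. Cd34, a surface marker of hematopoietic progenitors and endothelium, was at 60.2 and 72.9 CPM in mandible and 7.78 and 10.3 CPM in femur and at 16.6 and 14.4 CPM in unligated femur (log2 fold change 2.88 ± 0.21, adjusted p = 0.00360). Its call was kept in every fit without 1 ligated library. Gata2, a progenitor transcription factor, was at 6.07 and 6.89 CPM in mandible and 2.15 and 1.82 CPM in femur (log2 fold change 1.70, adjusted p = 0.00952), and Mpo, the myeloperoxidase of granulocyte and monocyte progenitors, at 17.8 and 19.0 CPM in mandible and 5.14 and 4.65 CPM in femur (log2 fold change 1.91, adjusted p = 0.0326). The call of Mpo was lost with the mouse as a block (adjusted p = 0.0832), where 2 progenitor genes were higher. Of 6 endothelial genes tested 1 was lower in mandible and 0 higher, against 8.18% and 7.58% of all genes, with a median of -0.06. Both mandible libraries lay above both femur libraries for 3 of the 6 and below them for 3. The gene called was Kdr, an endothelial growth factor receptor, at 1.49 and 3.54 CPM in mandible and 42.1 and 45.9 CPM in femur (log2 fold change -4.12, adjusted p = 0.00529).

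The other genes with the largest fold changes upward were on no list apart from Cyp1b1. Pmepa1, an inhibitor and target of TGF-β signalling, had the largest fold change among the genes named by rank, at 60.6 and 37.7 CPM in mandible and 1.64 and 1.73 CPM in femur (log2 fold change 4.86, adjusted p = 0.00585), which was 29.1-fold higher in mandible. Ltbp1, which holds latent TGF-β in the matrix, was at 47.7 and 41.1 CPM in mandible and 3.51 and 3.37 CPM in femur (log2 fold change 3.69, adjusted p = 0.00502). Cspg4, the proteoglycan NG2, was at 18.8 and 15.4 CPM in mandible and 0.678 and 0.593 CPM in femur (log2 fold change 4.74, adjusted p = 0.00543). For each of these the mandible values exceeded every femur value, the unligated femur libraries included. Angptl2, a secreted angiopoietin-like protein, was at 43.4 and 35.5 CPM in mandible and 4.67 and 3.78 CPM in femur (log2 fold change 3.22, adjusted p = 0.00362), and its call was kept in every fit without 1 ligated library. The collagen hydroxylase subunit P4ha3, the ephrin receptor Epha2 and the TWEAK receptor Tnfrsf12a had log2 fold changes of 4.46, 3.42 and 2.82. Tmeff1, Rgs16, Nptx1 and Acsbg1 completed the 15 genes, with log2 fold changes of 4.04, 3.51, 2.87 and 2.83.

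Genes of osteoclast commitment and bone resorption did not pass the test in either direction, with 0 of 14 and 0 of 15 called by edgeR (3 and 1 at an unadjusted p under 0.05). Over all genes tested, 7.58% were called higher, 8.18% were called lower and 31.2% had an unadjusted p under 0.05. DESeq2 on the same 6 libraries called 1 commitment gene higher, 1 lower and 1 resorption gene higher, and edgeR with the mouse as a block called 0 and 0. With the 4 ligated LSD1cKO libraries alone 2 commitment genes were higher and 3 lower, and 2 resorption genes were higher and 5 lower, in a fit that called 21.4% and 20.8% of all genes. The medians were 0.02 and -0.15, near that of all genes. Both mandible libraries lay below both femur libraries for 5 commitment and 9 resorption genes, and above them for 6 and 3. Over all genes these shares were 35.5% and 35.8%. Resorption genes summed to 17208 and 17461 CPM in mandible and 23191 and 20452 CPM in ligated femur. In unligated femur the sum was 32691 and 14034 CPM, further apart than the sites. Nfatc1, the master transcription factor of osteoclasts, was at 707 and 644 CPM in mandible and 502 and 458 CPM in femur (log2 fold change 0.49 ± 0.35, adjusted p = 0.401). The unligated femur values of Nfatc1 were 769 and 359 CPM, further apart than the sites, and with the 4 libraries alone Nfatc1 passed (adjusted p = 0.0139). Tnfrsf11a, the receptor RANK, was named after its values were seen and was at 234 and 258 CPM in mandible and 227 and 216 CPM in femur (log2 fold change 0.15 ± 0.19, adjusted p = 0.653). Csf1r, the receptor of M-CSF, was at 803 and 937 CPM in mandible and 1605 and 1202 CPM in femur (log2 fold change -0.69 ± 0.42, adjusted p = 0.326, and adjusted p = 0.0126 with the 4 libraries alone). Mitf, a partner of the osteoclast program, was at 226 and 205 CPM in mandible and 138 and 119 CPM in femur (log2 fold change 0.75 ± 0.22, adjusted p = 0.0718).

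Among resorption genes, Ctsk, the collagenase cathepsin K, was at 4473 and 3787 CPM in mandible and 3874 and 3988 CPM in femur, with overlapping groups (log2 fold change 0.07 ± 0.32, adjusted p = 0.914). Acp5, tartrate-resistant acid phosphatase, was at 3061 and 3137 CPM in mandible and 5007 and 4635 CPM in femur (log2 fold change -0.64 ± 0.41, adjusted p = 0.347, and adjusted p = 0.00642 with the 4 libraries alone). Itgav, an integrin chain of the sealing zone, was at 1122 and 1237 CPM in mandible and 596 and 445 CPM in femur (log2 fold change 1.18 ± 0.38, adjusted p = 0.0862, and adjusted p = 0.000890 with the 4 libraries alone). The mandible libraries were below the femur libraries for Acp5 and above them for Itgav.

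Fusion genes were higher for 2 of 12 and lower for 3, against 7.58% higher and 8.18% lower over all genes. With the mouse as a block 0 were higher and 1 lower, against 353 and 545 of 14824 genes. Dcstamp, required for fusion, was at 417 and 384 CPM in mandible and 222 and 214 CPM in femur (log2 fold change 0.88, adjusted p = 0.0408), and Cd44, a hyaluronan receptor, at 795 and 854 CPM in mandible and 387 and 337 CPM in femur (log2 fold change 1.19, adjusted p = 0.0338). Both were higher in mandible, but the calls were lost with the mouse as a block (adjusted p = 0.119 and 0.0949). Mcemp1, a myeloid membrane protein, was lower at 3.23 and 3.51 CPM in mandible and 15.2 and 17.4 CPM in femur (log2 fold change -2.27, adjusted p = 0.00502), as were Sirpa and its ligand Cd47, with log2 fold changes of -1.03 and -0.69 (adjusted p = 0.132 and 0.120 with the mouse as a block). Of 13 receptors, adaptors and signalling enzymes listed for costimulation beside RANK, 5 were lower (8.18% of all genes), and 2 with the mouse as a block. The list holds an inhibitory receptor as well. The receptors Oscar, Trem2 and Pira2 did not pass, with log2 fold changes of -0.87, -0.59 and -0.48. Oscar and Trem2 were named after their values were seen. The inhibitory receptor Pirb was at 230.3 and 270.3 CPM in mandible and 574 and 544 CPM in femur (log2 fold change -1.16, adjusted p = 0.0101), and the adaptors Fcer1g and Tyrobp (DAP12) had log2 fold changes of -0.98 and -0.93, with adjusted p = 0.0699 and 0.121 with the mouse as a block.

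Repressors of the osteoclast program were lower in mandible for 6 of 12 (8.18% of all genes), with a median of -1.08 and none higher. Irf8, which keeps precursors from differentiating and is itself an interferon-regulated factor, was at 14.7 and 20.1 CPM in mandible and 86.7 and 76.3 CPM in femur and at 49.9 and 58.7 CPM in unligated femur (log2 fold change -2.22 ± 0.21, adjusted p = 0.00419). The receptor Tnfrsf1b was at 80.4 and 95.9 CPM in mandible and 263 and 226 CPM in femur (log2 fold change -1.47, adjusted p = 0.0108). Of these, the call of Irf8 alone was kept in all fits without 1 ligated library, and 4 members were lower with the mouse as a block.

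**Figure D4:**
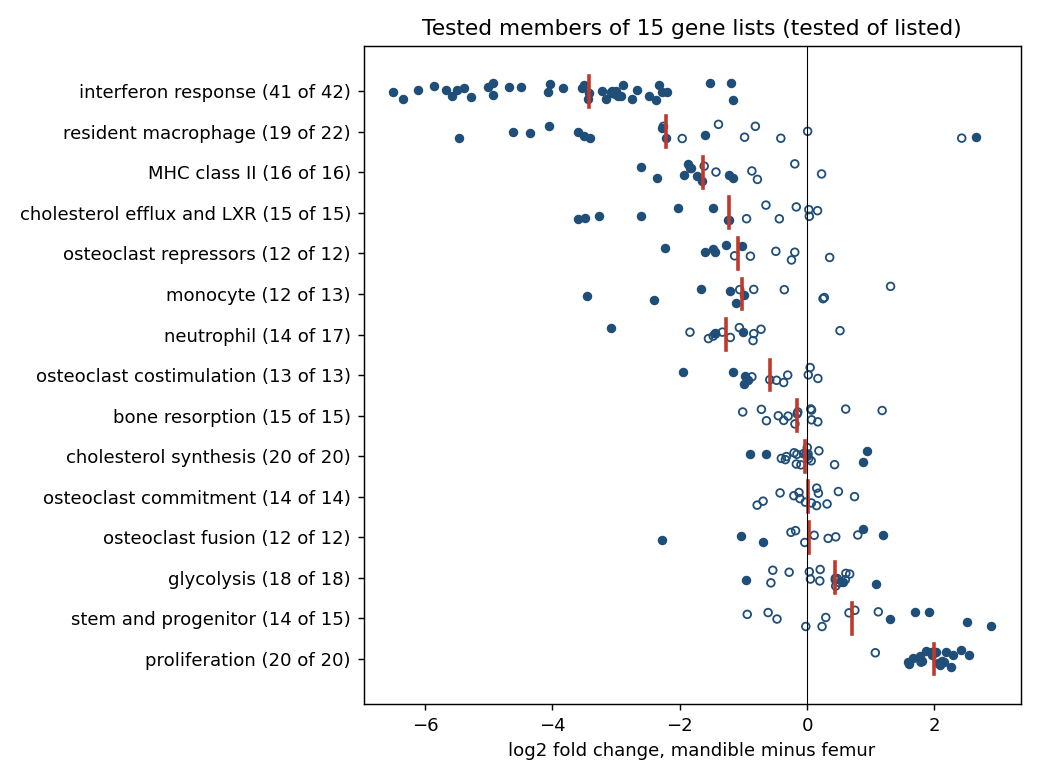
Log2 fold change, mandible against ligated femur in LSD1cKO, of each tested gene of 15 lists, with filled points for genes called and a red bar for the median of each list. Medians run from -3.42 (interferon response) to 2.00 (proliferation), and no point is filled for osteoclast commitment or bone resorption.

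Markers of other cells that marrow or adjoining tissue could bring were checked at both sites. Erythroid markers summed to 0.781 and 0.638 CPM in mandible and 0.359 and 0.501 CPM in femur, with Slc4a1, Rhag and Epb42 at 0 counts. T and NK cell markers summed to 29.9 and 35.5 CPM and to 52.6 and 44.8 CPM, with Cd3e and Cd3g at 0 counts, and the call in this list was Cd4, which macrophages can also express, at 0.497 and 0.638 CPM in mandible and 14.3 and 11.4 CPM in femur (log2 fold change -4.49, adjusted p = 0.00495). B-cell markers summed to 11.01 and 13.2 CPM in mandible and 50.6 and 53.6 CPM in femur, mostly Ighm at 8.03 and 10.3 CPM in mandible and 43.4 and 43.7 CPM in femur (log2 fold change -2.25, adjusted p = 0.00362). Neutrophil markers summed to 145.7 and 180.0 CPM in mandible and 399 and 356 CPM in femur, with 3 of 14 lower (8.18% of all genes). Among them was Csf3r, the G-CSF receptor, at 2.56 and 2.90 CPM in mandible and 25.9 and 20.6 CPM in femur (log2 fold change -3.09, adjusted p = 0.00360). The calls of Ighm and Csf3r were kept in every fit without 1 ligated library. Megakaryocyte markers summed to 18.8 and 22.8 CPM in mandible and 39.4 and 40.5 CPM in femur. The B-cell, neutrophil and megakaryocyte sums were higher in femur in both mice. In unligated femur the neutrophil sum was 188 and 302 CPM and the megakaryocyte sum 27.4 and 68.9 CPM. The T and NK cell sum was also higher in femur, but it includes Cd4 and is mostly Il7r. Il7r overlapped between the sites, at 25.6 and 31.6 CPM in mandible and 35.7 and 31.1 CPM in femur. Trac lay in the opposite direction, at 3.05 and 2.84 CPM in mandible and 2.03 and 1.82 CPM in femur. The part of these cells in the results was not tested.

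Stromal markers summed to 20.5 and 12.8 CPM in mandible and 9.37 and 7.25 CPM in ligated femur. In unligated femur the sum was 20.9 and 11.4 CPM, so the range of the mandible libraries lay within that of unligated femur. The list had a median log2 fold change of 1.37 over 14 tested genes (0.36 against unligated femur). Of the 14, 1 was called higher and 0 lower, against 7.58% and 8.18% of all genes. The gene called was Postn, a matrix protein of periosteum and periodontal ligament. It was at 1.10 and 0.351 CPM in mandible and 0.0399 and 0 CPM in femur, which is 1 count in the femur libraries together. Col1a1 was at 5.15 and 1.5 CPM in mandible and 0.479 and 0.0912 CPM in femur and did not pass (adjusted p = 0.0807). Some genes of tooth and of epithelium were counted in mandible alone and others at both sites. Odam, an ameloblast and junctional epithelium protein, was at 0.994 and 18.9 CPM in mandible and at 0 counts in both femur libraries, so that mandible 2L carried most of the difference (adjusted p = 0.0726, and 0.0218 with the mouse as a block). Krt14, a basal epithelial keratin, was at 0.533 and 2.46 CPM against 0 counts (adjusted p = 0.0502). Cdh1, the epithelial cadherin, was at 2.49 and 2.90 CPM in mandible and 0.558 and 0.866 CPM in femur (log2 fold change 1.92, adjusted p = 0.0220). Perp, a desmosome protein, was at 4.94 and 4.56 CPM in mandible and 2.27 and 1.87 CPM in femur (log2 fold change 1.19, adjusted p = 0.0412). Phex, an endopeptidase of osteocytes and odontoblasts, was at 1.42 and 1.53 CPM in mandible and 0.598 and 0.365 CPM in femur (log2 fold change 1.60, adjusted p = 0.0468). These 3 genes were counted in femur too, and their calls were lost with the mouse as a block (adjusted p = 0.0608, 0.114 and 0.124, edgeR). Epcam, also of the epithelial list and named after its values were seen, lay in the opposite direction and did not pass. Its values were 1.07 and 1.95 CPM in mandible and 2.87 and 2.19 CPM in femur (log2 fold change -0.74, adjusted p = 0.484, edgeR). The tooth list summed to 2.41 and 46.2 CPM in mandible and 0.598 and 0.365 CPM in femur. Mouse 2L carried most of it: on the scale of all 12 libraries the enamel protein genes Ambn and Amelx, named after their values were seen, were at 0 and 15.3 CPM and 0 and 6.12 CPM in the mandible libraries of mice 1L and 2L. The part of such RNA in other results was not tested. Dspp and Dmp1, dentin genes, were at 0 counts in all 4 libraries. Few patterning genes were measurable. Of 39 Hox genes 4 were tested and 24 were at 0 counts in all 4 libraries, and of 26 craniofacial genes 3 were tested. None of these passed with edgeR or DESeq2 on the 6 libraries. An unadjusted p under 0.05 (edgeR) was found for 1 of the 4 Hox genes (Hoxa4, log2 fold change 1.10) and 0 of the 3 craniofacial genes. The share over all genes was 31.2%.

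Whether the site difference itself depended on LSD1 was tested as the difference of the mandible effect between LSD1cKO and LSD1WT, over all 12 libraries. Of 15425 genes tested with edgeR, 0 passed (0%), with 149 at an unadjusted p under 0.05, and DESeq2 called 1 gene. No site difference described here is thus shown to be particular to LSD1cKO. The LSD1WT pairs were uneven. In the ligated femur of LSD1WT, Ctsk was at 7599 CPM in replicate 1 and 5.90 CPM in replicate 2, against 7278 and 7133 CPM in mandible, so the second femur library was far below every other library of the ligated mice in this osteoclast transcript. The label of one LSD1WT mandible library (replicate 3) also conflicts with itself over the bone, and it is counted as mandible by its title. On the scale of 12 libraries Odam was at 5.79 and 6.09 CPM in LSD1WT mandible replicates 1 and 3 and at 0 counts in all 8 femur libraries.

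With that limit, the medians of the lists can be set beside each other from the fit of 12 libraries. The interferon response had a median of -3.49 in LSD1WT, near that in LSD1cKO, and the resident-macrophage list had -5.29. Ifit1 was at 0.490 and 0.660 CPM in LSD1WT mandible and 7.11 and 53.8 CPM in LSD1WT femur, with a log2 site difference of -5.71 ± 1.01 in LSD1WT and -5.68 ± 0.97 in LSD1cKO (adjusted p = 1.00 for the difference between genotypes, edgeR). Mandible was below femur in both genotypes for Ifit1. The proliferation list had a median of 0.86 in LSD1WT. Mki67 was at 276 and 271 CPM in LSD1WT mandible and 194 and 118 CPM in LSD1WT femur, again with mandible above. The smallest p of the difference between genotypes was that of Ifi206, an interferon-inducible nucleic-acid sensor, with -5.02 ± 0.49 in LSD1cKO and -1.40 ± 0.43 in LSD1WT (unadjusted p = 0.000307, adjusted p = 1.00), and its site difference within LSD1cKO was kept in every fit without 1 ligated library. Col4a1, a basement membrane collagen, had 3.83 ± 0.46 and 0.69 ± 0.40 (adjusted p = 1.00).

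**Figure D5:**
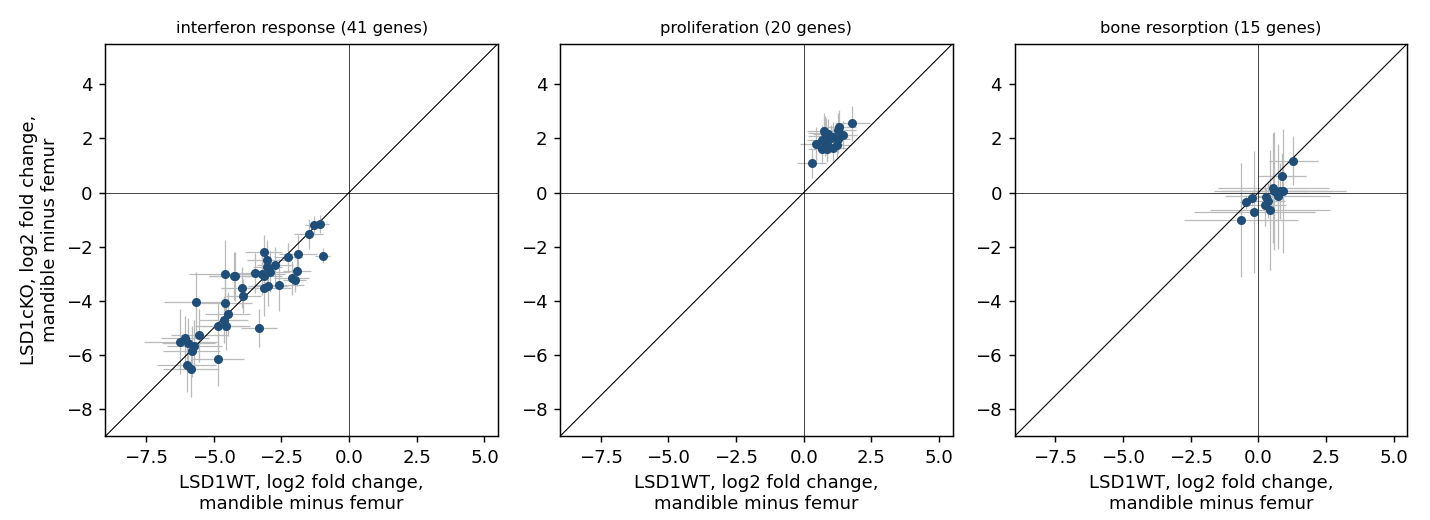
Log2 site difference, mandible against ligated femur, in LSD1cKO (vertical) against that in LSD1WT (horizontal), with standard errors from the fit of 12 libraries and a diagonal of equal differences. The 41 interferon-response genes lie below 0 on both axes, the 20 proliferation genes lie above 0 on both, and no gene passed the test of the difference between genotypes.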

How the data were processed

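Bulk polyA RNA was measured in 12 libraries of cultured preosteoclasts. The authors deposited whole-number read counts per Ensembl gene, without normalization. The submitters' processing notes name FastQC, HISAT2 2.1.0, featureCounts, edgeR and GRCm39, with no order. The fit of 6 LSD1cKO libraries used edgeR 4.0.16 in R 4.3.3, with filterByExpr, TMM scaling and the quasi-likelihood test, two-sided, adjusted by Benjamini-Hochberg at 0.05. Log2 fold changes are given ± SE. CPM values are TMM-scaled. The genotype difference used all 12 libraries. Libraries of 1 group come from separate mice, 2 per group, so p-values rest on the spread between mice pooled over such pairs, 3 in the fit of 6 (with the unligated femur pair) and 6 in the fit of 12.

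Both sites of LSD1cKO share their mice by label, so the samples pair. The change from mouse 1L to 2L correlated at 0.0199 between sites over 14824 genes. No replicate pair agreed within sampling noise (chi-square over its degrees of freedom from 2.93 to 644).

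Members and lists were chosen with earlier results of these data known. Named genes were the 15 with the largest fold change in each direction (adjusted p under 0.05, mean of at least 5 CPM in the higher group, no overlap), up to 6 members per list with the smallest p, the genes of the study's qRT-PCR and the 10 genes with the smallest p of the genotype difference. Not every gene so chosen is printed, and others were named after their values were seen. Alternatives were DESeq2 1.42.0, other libraries in the fit, the mouse block, RLE and upper-quartile scaling, other filters and each library left out. DESeq2 on 12 libraries was chosen after seeing the data. On simulated data, the fit of 6 libraries recovered 86% of 200 genes changed 4-fold, with 8 false calls over 14824 genes, the fit of 12 recovered 24.5%, and the genotype difference 0%. The changed genes were drawn above a minimum mean count, and the simulated libraries held no effect shared by the sites of a mouse.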

Additional observations from a re-analysis of the deposited data

Results flagged for a closer look

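In 5 genes named here, both LSD1cKO mandible libraries lay on one side of both femur libraries and both LSD1WT mandible libraries on the other. The difference between the genotypes was tested in the fit of all 12 libraries (edgeR), and the adjusted p was 1.00 for each. Such opposite, non-overlapping groups were found in 350 genes (LSD1cKO higher, LSD1WT lower) and 159 genes (the reverse) of the 14824 tested in both fits, so they are not rare.

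Sqle, squalene epoxidase, had a log2 site difference of 0.94 in LSD1cKO and -0.37 in LSD1WT, a difference of 1.31 ± 0.83 (unadjusted p = 0.152). Hsh2d, an adaptor of hematopoietic cells, had -2.90 in LSD1cKO and 0.41 in LSD1WT, a difference of -3.31 ± 0.74 (unadjusted p = 0.00171). Smad9, a signal transducer of bone morphogenetic proteins, had 4.21 in LSD1cKO and -3.05 in LSD1WT, a difference of 7.26 ± 1.81 (unadjusted p = 0.00344). Smad9 was near the limit of detection, at 0.391 and 0.574 CPM in LSD1cKO mandible and 0 and 0.0456 CPM in LSD1cKO femur. Fsd2 had -1.76 in LSD1cKO and 0.95 in LSD1WT, a difference of -2.72 ± 0.69 (unadjusted p = 0.00388), with every value of the ligated mice at or under 1.10 CPM. Cdo1, cysteine dioxygenase, had -1.04 in LSD1cKO and 2.30 in LSD1WT, a difference of -3.34 ± 0.91 (unadjusted p = 0.00557), at 0.103 and 0.155 CPM in LSD1cKO mandible and 0.194 and 0.351 CPM in LSD1cKO femur, and was too low to be tested in the fit of 6 libraries.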

How the results depend on the processing

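The counts of genes called depended most on which libraries set the spread. Against 1123 higher and 1213 lower, edgeR called 0 and 0 with all 12 libraries (and 0 and 0 with the mouse block in them, 1830 at an unadjusted p under 0.05), DESeq2 with all 12 called 339 and 471, and the 4 libraries alone gave 3092 and 3009. Leaving out 1 library gave from 11 to 3095 higher and from 164 to 3009 lower. A log2 fold change of at least 1 left 671 higher and 920 lower. RLE and upper-quartile scaling, other filters and DESeq2 on the 6 libraries gave counts within 1.5 times. With the mouse as a replicate block in the 6 libraries, 353 were higher and 545 lower, 897 of them called without the block too. The pairing by mouse is by label, and the block kept 94 of the 137 calls among 167 genes examined singly and added that of Odam.

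The genotype difference had 0 calls with each of the 8 ligated libraries left out (0 to 0), and DESeq2 called 1. Among these 167 genes, directions turned for 2 uncalled genes, both without mandible replicate 1. Ctsk ran from -0.0496 (there) to 0.19 over the libraries left out, and Hif1a from -0.21 to 0.00434 (there), with none of these values past the threshold. Between 44 and 65 of the 137 calls were kept when 1 of the 4 ligated libraries was left out, and 137 when an unligated one was. With 2 mice per site, 4-fold changes between sites were mostly recovered in simulation in the fit of 6 libraries (86%). In the fit of 12 libraries 24.5% were recovered. Smaller changes and genes with the lowest counts were not examined, and a 4-fold difference between genotypes was not detectable.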
